A study of Mus musculus with 6 samples.

Results

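Oxidative phosphorylation is the last stage of aerobic energy metabolism, in which electrons from food molecules pass along complexes I to IV of the inner mitochondrial membrane to oxygen, and the proton gradient they build drives ATP synthesis by complex V. Most subunits of these complexes are encoded in the nucleus and imported, while a small set of core subunits of complexes I, III, IV and V is encoded by the mitochondrial genome, and complex II is nuclear throughout. Osteoblasts, the bone-forming cells, rely on both glycolysis and this pathway.

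The genes described here are the nuclear genes of these subunits, chosen by symbol alone (names beginning Nduf followed by a, b, c, s or v and a digit, the genes Sdha to Sdhd, names beginning Uqcr, Cyc1, the numbered Cox subunit genes and names beginning Atp5). This gave 95 of the 29616 genes in the table. Of these, 83 reached a mean of 10 normalized counts (read counts divided by a size factor per library) over the 6 libraries and were tested. The other 12 were below that mean and were not tested. They are 6 genes named as pseudogenes, the gene copies Ndufa11b, Ndufb4c and Ndufs6b, and Cox6b2, Cox7b2 and Cox8b, which encode isoforms known mainly from testis or muscle. Their means were between 0.493 and 5.95 normalized counts. Ndufa4, Ndufa4l2 and Cox7a2l were placed with complex IV, to which their proteins are assigned, whatever their names.

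RNA sequencing of bone cells from C57BL/6 mice set 3 control libraries against 3 dexamethasone libraries. Dexamethasone is a synthetic glucocorticoid, and the daily dose was 0.08 µg per g of body weight over 4 weeks. Mice of the study's treatment protocol were 8 weeks old at its start. According to the study's text, the sequenced cells were isolated as positive for Osteocalcin, a protein made by osteoblasts, out of bones cleared of marrow. For its mouse model in general the study gives saline to the controls, whereas the labels of these libraries say only control. The sources used here do not say how many mice went into a library, so p-values measure only the spread between these libraries.

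The libraries held 72596611 to 89910728 counted reads. The pairs of replicates that include dexamethasone replicate 3 differed more than the others did (chi-square per degree of freedom 20.0 and 28.9, against 3.56 to 8.32). The label of bone cells was checked on 11 osteoblast markers, all of which were detected. Of these, 8 were lower with dexamethasone, among them Bglap, an Osteocalcin gene, at means of 107 and 12.2 normalized counts, and 3 were higher (Spp1, Dmp1 and Phex). The summed level of the 11 overlapped, at 2009100 to 2137793 normalized counts in the control libraries and 2010803 to 2142748 in the dexamethasone libraries. For this and the next marker counts, 35.2% of all tested genes were lower and 37.2% higher by the same test, described below. All 12 proliferation markers were higher, and their summed level was 44120 to 47342 normalized counts in the control libraries and 278759 to 292145 in the dexamethasone libraries. Of 8 endothelial markers 7 were in the table and only 4 reached the mean for testing. Of these 4, 3 were higher and 1, with a log2 fold change of -0.75, did not pass (summed level of the list 2160 to 2280 and 3257 to 3868). Of the hematopoietic markers 3 of 5 tested were higher and 2 lower (6694 to 6955 and 8098 to 8586), with Ptprc below the mean for testing. Of the pericyte and smooth muscle markers 3 of 6 tested were lower and 1 higher (163506 to 171819 and 27311 to 29230), and the single tested osteoclast marker, Ctsk, was lower. Of 6 chondrocyte markers 2 were tested, with 1 higher and 1 lower, and the summed level of the list was higher (1635 to 1684 and 5485 to 6239). No brown or white adipocyte marker reached the mean for testing, and the single tested erythroid and germ cell markers did not pass the test. Cell numbers and RNA per cell cannot be told apart in such bulk libraries, and the part of these shifts in the results below was not tested.

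With dexamethasone, most nuclear subunit genes were lower by a modest amount. Of the 83 tested genes, 52 fell and 9 rose at an adjusted p-value under 0.05 in limma (a linear model fitted to all genes, on log2 of the normalized count plus 1, p-values adjusted by Benjamini-Hochberg across the 17442 genes tested), and 22 did not pass. Over all tested genes, 35.2% were lower and 37.2% higher by the same rule, 72.5% in all. The median log2 fold change was -0.20 for the subunit genes and 0.0007 for all tested genes, and 71 of the 83 lay within 0.5 of 0. With the additional requirement of a log2 fold change of at least 1, Cox7a2l and Cox7a1 were lower and Cox4i2 was higher, whereas 22.3% of all tested genes met both requirements. The values of the control and dexamethasone libraries did not overlap for 59 of the 83 genes, and for 74.7% of all tested genes. Summed over the members, the level was 544577 ± 13948 normalized counts (SD, n = 3) with control and 484958 ± 13835 (SD, n = 3) with dexamethasone, and the members took 0.692% to 0.706% of the counts of each control library and 0.563% to 0.592% of those of each dexamethasone library.

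The scaling of the libraries bears on these small changes. The deposited values summed to 1.08 times as much in the dexamethasone libraries as in the control libraries. Rescaling every library to the same total moved the median of all tested genes to -0.11, and 66 subunit genes were then lower and 7 higher, with a median of -0.32. After quantile normalization, which gives every library the same distribution of values, 70 were lower and 4 higher. All 52 genes called lower on the deposited scale were also called lower under both. Sdhd and Atp5a1 lost their calls as higher at the same total, and Sdhd, Cyc1, Ndufs1, Atp5g3 and Atp5j lost theirs after quantile normalization.

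**Figure D1:**
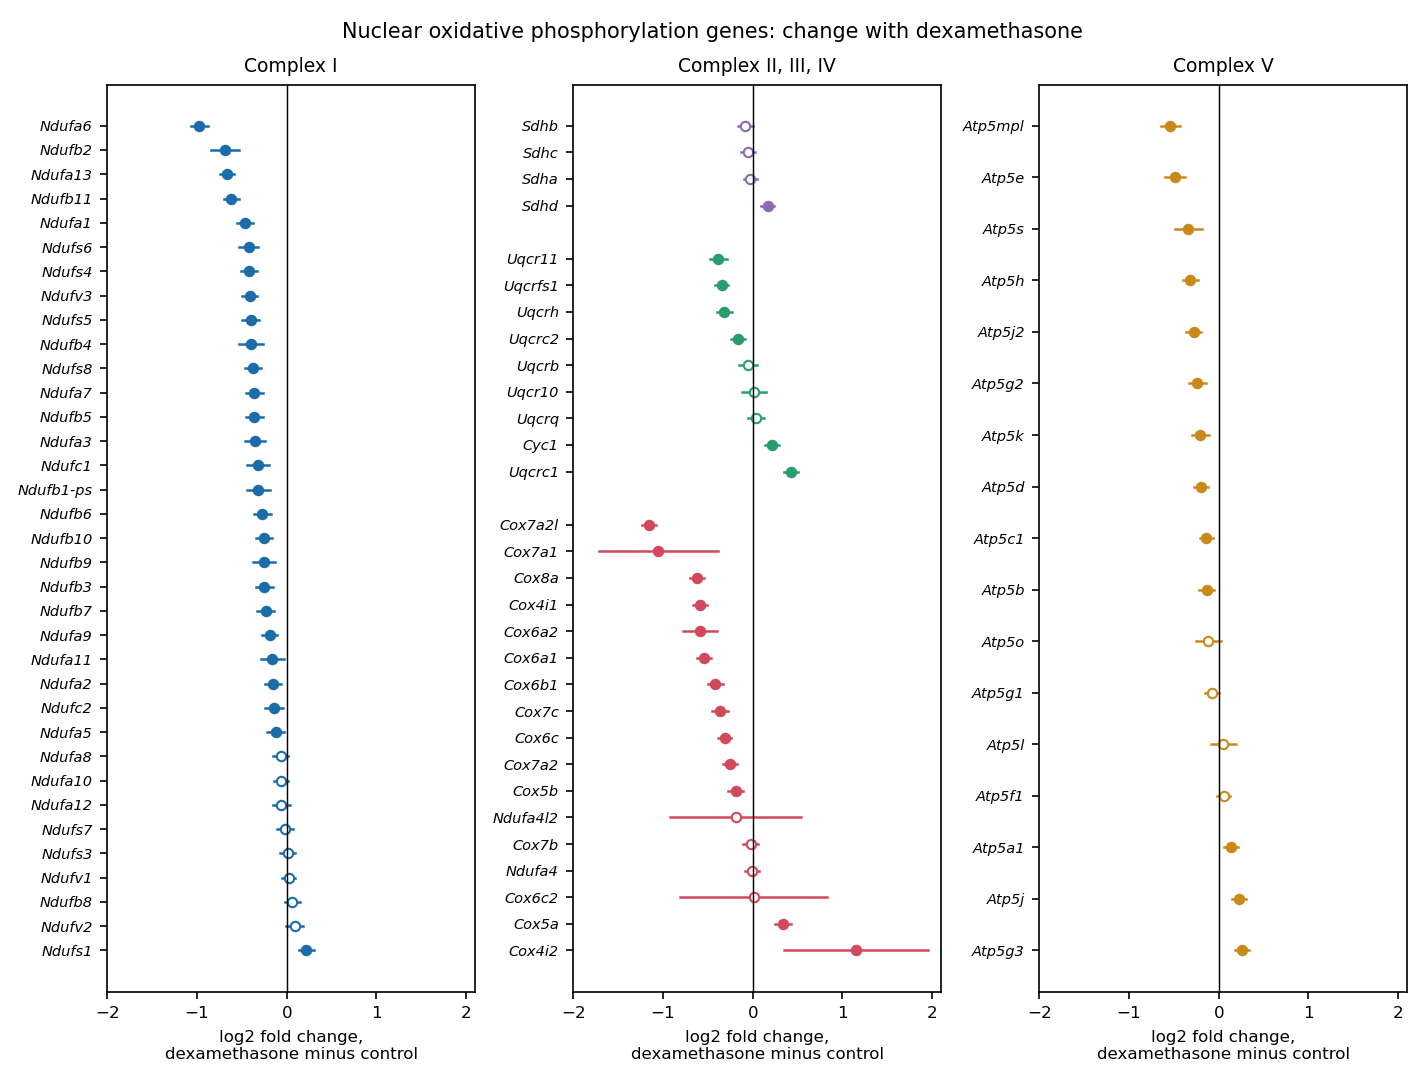
Log2 fold change (dexamethasone minus control, x axis) of the tested nuclear subunit genes (83, with 1 gene of complex I not drawn), by complex, with points at the limma estimate and lines for 95% confidence intervals (3 libraries per group). Filled points passed the test at an adjusted p-value under 0.05. Most filled points lie to the left of 0 in complexes I, IV and V, while 3 of the 4 points of complex II are open.

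The complexes differed in how many of their genes were lower and by how much their summed level changed. Complex I summed to 131537 to 138111 normalized counts in the control libraries and to 112554 to 120455 in the dexamethasone libraries, a mean change of -13.6%. Complex IV went from 105280 to 109588 down to 74549 to 79853, a mean change of -28.4%. For complex V the control libraries held 218469 to 228433 and the dexamethasone libraries 206993 to 217398, a mean change of -4.18%. In these 3 complexes the groups did not overlap. In complexes II and III they overlapped on the deposited scale, with mean changes of -0.56% and -3.56%. With every library rescaled to the same total the groups overlapped in none of the 5 complexes, and the mean changes were -20.2%, -8.11%, -10.9%, -33.8% and -11.5% for complexes I to V. These sums are a description without a test, and with 3 libraries per group an exact permutation test cannot give a two-sided p below 0.1.

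**Figure D2:**
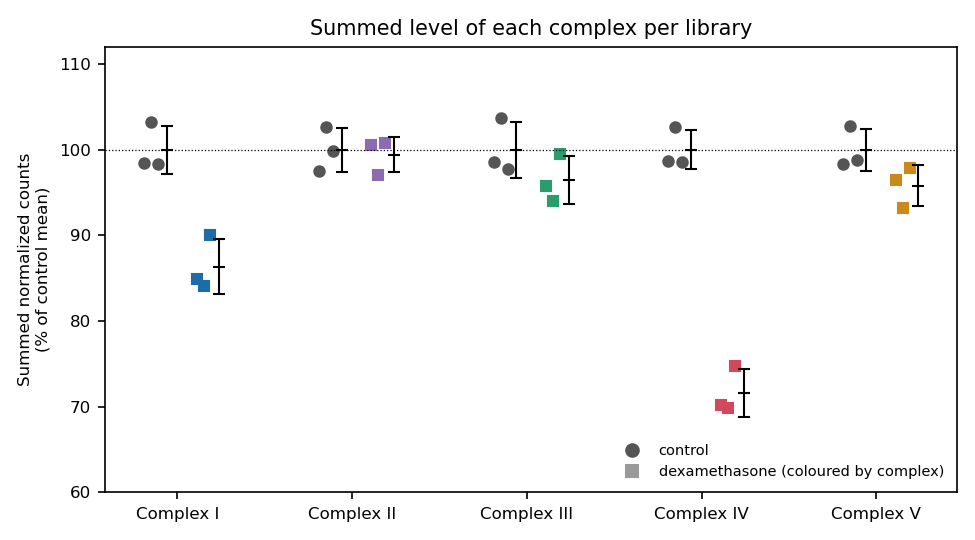
Summed normalized counts of each complex in each library, as percent of the control mean (y axis, from 60%). Circles are control and squares dexamethasone libraries, and the bars give mean ± SD (n = 3). The dexamethasone libraries of complex IV lie farthest below the control libraries, those of complex I next, and those of complexes II and III overlap the control range on this deposited scale, though not with every library at the same total.

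Complex I (NADH dehydrogenase) takes electrons from NADH. Of its 36 tested genes, 27 were lower and 1 was higher, with a median log2 fold change of -0.26. Its 7 nuclear core subunits, which hold the flavin and the iron-sulphur clusters and have bacterial counterparts, and its 29 tested supernumerary (accessory) subunits were looked at apart. Among the supernumerary genes 25 were lower and 0 higher, with a median of -0.32 (-0.43 at the same total and after quantile normalization). The count of those that rose was 0 also in edgeR and DESeq2, and 0 at an unadjusted p-value under 0.05 in limma. Among the core genes 2 were lower and 1 higher, with a median of 0.01 that became -0.10 at the same total and -0.18 after quantile normalization. Summed over genes, the core subunits changed by -4.54% and the supernumerary subunits by -17.7% (-11.8% and -23.9% at the same total).

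Among the supernumerary genes, Ndufa6, a small subunit of the matrix arm, had the lowest fold change. It had 2728, 2833 and 2780 normalized counts in control replicates 1 to 3 and 1377, 1394 and 1473 in dexamethasone replicates 1 to 3. The dexamethasone libraries lay close together, below every control library, and the log2 fold change was -0.97 (SE 0.0445, limma adjusted p = 5.32e-16). Ndufb2, a subunit of the membrane arm, had 542, 547 and 542 normalized counts in the control libraries and 316, 358 and 341 in the dexamethasone libraries, a log2 fold change of -0.69 (SE 0.0764, limma adjusted p = 1.66e-08). Ndufa13 and Ndufb11, also of the membrane arm and chosen after their values were seen, had log2 fold changes of -0.67 and -0.62 (limma adjusted p = 4.22e-14 and 2.1e-12). In the GENCODE M21 annotation, 29.98% of the exon bases of Ndufa13 and 12.89% of those of Ndufb11 are shared with genes of the opposite strand, and the strand setting of the count is not given in the sources used here. The same limit holds for other members, some with a larger share, such as Ndufb6 of complex I (39.0%) and Atp5o of complex V (35.6%). Uqcrc2 of complex III (19.75%), Cox5a of complex IV (12.8%) and Atp5j of complex V (12.68%) are also among them. The other supernumerary genes called lower fell by 0.12 to 0.46 on the log2 scale, and Ndufa8, Ndufa10, Ndufa12 and Ndufb8 did not pass.

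Of the core genes, Ndufs1, which encodes the largest nuclear subunit of the complex, had 4768, 5146 and 4766 normalized counts in the control libraries and 5920, 5607 and 5549 in the dexamethasone libraries. The groups did not overlap, and its log2 fold change was 0.22 (SE 0.04, limma adjusted p = 3.06e-05), and 0.10 at the same total. Ndufs8 was lower, by 0.38 on the log2 scale. The flavin-site genes Ndufv1 and Ndufv2 had overlapping groups and log2 fold changes of 0.02 and 0.09, which turned to -0.09 and -0.03 at the same total.

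Complex II (succinate dehydrogenase) links the TCA cycle to the chain. Sdha, the flavoprotein, had 15569, 16368 and 15972 normalized counts in the control libraries and 16032, 15349 and 15614 in the dexamethasone libraries, so that the groups overlapped (log2 fold change -0.03, 95% confidence interval from -0.10 to 0.05). Sdhb, the iron-sulphur subunit, and Sdhc, one of the membrane anchors, had log2 fold changes of -0.08 and -0.05 and did not pass (limma adjusted p = 0.0663 and 0.204). Sdhd, the other anchor, had 5806, 6085 and 6001 normalized counts in the control libraries and 6822, 6445 and 6794 in the dexamethasone libraries. The log2 fold change of Sdhd was 0.17 (SE 0.0369, limma adjusted p = 0.000323), and it became 0.05 at the same total and -0.04 after quantile normalization. In complex II 0 genes were thus called lower in limma, against 1 at an unadjusted p-value under 0.05, 2 in edgeR (Sdhb and Sdhc) and 1 in DESeq2 (Sdhb). At the same total Sdha, Sdhb and Sdhc were all called lower in limma, with log2 fold changes of -0.14, -0.20 and -0.17.

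Complex III (cytochrome bc1) passes electrons from ubiquinol to cytochrome c. Of its 9 tested genes 4 were lower and 2 higher. The higher genes were Uqcrc1, a core protein of the matrix side, and Cyc1, cytochrome c1 itself. Uqcrc1 had 5713, 5986 and 5561 normalized counts in the control libraries and 7999, 7438 and 7785 in the dexamethasone libraries, the highest fold change of the complex at 0.43 on the log2 scale (SE 0.0386, limma adjusted p = 3.7e-10), and 0.31 at the same total. Cyc1 had 4704, 4970 and 4780 normalized counts in the control libraries and 5610, 5554 and 5594 in the dexamethasone libraries (log2 fold change 0.21). The partner core protein gene Uqcrc2 went the other way, with a log2 fold change (limma) of -0.16 (adjusted p = 0.000543) and -0.28 at the same total, so that the 2 core protein genes moved in opposite directions on both scales. The Rieske iron-sulphur protein gene Uqcrfs1 had a log2 fold change of -0.35 and the small-subunit genes Uqcr11 and Uqcrh of -0.38 and -0.32. Uqcrb, Uqcr10 and Uqcrq had values between -0.05 and 0.04 and did not pass.

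Complex IV (cytochrome c oxidase) reduces oxygen. The median log2 fold change over its 17 tested genes was -0.31, with 11 lower and 2 higher, and without Ndufa4, Ndufa4l2 and Cox7a2l the median of the remaining 14 was -0.34. Cox7a2l, which is related to subunit VIIa, had 23669, 24757 and 23589 normalized counts in the control libraries and 10661, 10455 and 11196 in the dexamethasone libraries. This was the largest fall among the 83 genes on the deposited scale, a log2 fold change of -1.16 (SE 0.0365, limma adjusted p = 2.44e-19). Of the 75-base stretches of its transcript, 86.6% occur in no other transcript. Per kilobase of transcript, its level of 22309 normalized counts in the control libraries was second in complex IV to the 24362 of Cox8a, and with dexamethasone the levels were 10010 for Cox7a2l and 15826 for Cox8a. Without Cox7a2l, Ndufa4 and Ndufa4l2 the summed level of the complex still changed by -23.0%.

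Among the ubiquitous isoforms, Cox8a had 13148, 13897 and 13153 normalized counts in the control libraries and 8310, 8622 and 9180 in the dexamethasone libraries, a log2 fold change of -0.62 (SE 0.039, limma adjusted p = 3.26e-13). Cox4i1, the regulatory subunit that binds adenine nucleotides, had 12068, 12658 and 12244 normalized counts in the control libraries and 8151, 7849 and 8564 in the dexamethasone libraries, a log2 fold change (limma) of -0.59 (adjusted p = 4.23e-13). In both genes the lowest control library stood above the highest dexamethasone library. Cox6a1, Cox6b1 and Cox7a2 had log2 fold changes of -0.54, -0.42 and -0.26 and all 3 were lower. Ndufa4, a late-joining subunit, and Cox7b had log2 fold changes of -0.01 and -0.02, and their groups overlapped. Against this, Cox5a, which lies on the matrix side, had 2162, 2230 and 2196 normalized counts in the control libraries and 2886, 2673 and 2791 in the dexamethasone libraries, and rose by 0.34 on the log2 scale (SE 0.0425, limma adjusted p = 1.09e-07), and by 0.23 at the same total. Its partner Cox5b was lower (log2 fold change -0.19).

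The tissue-restricted isoforms were far below their ubiquitous counterparts. Per kilobase of transcript, control levels were 475 normalized counts for Cox6a2, the heart and muscle isoform, and 12455 for Cox6a1. They were 65.3 for Cox7a1, another muscle isoform, against 7285 for Cox7a2, and 13.7 for Cox4i2, known from lung and oxygen-sensing cells, against 16109 for Cox4i1. Ndufa4l2, a hypoxia-responsive relative of Ndufa4, was at 16.7 against 14476, and its fold change did not pass (limma adjusted p = 0.639). Cox6a2 had 340, 316 and 313 normalized counts in the control libraries and 218, 217 and 207 in the dexamethasone libraries, a log2 fold change (limma) of -0.59 (adjusted p = 3.89e-06). Cox7a1 had 27.5, 19.6 and 29.9 in the control libraries and 12.4, 10.9 and 11.6 in the dexamethasone libraries, a log2 fold change of -1.06 (SE 0.323, limma adjusted p = 0.00526). Of 10 skeletal muscle markers, 8 were in the table and 4 had enough counts to be tested, with 1 lower in limma (Acta1). The other tested markers, Mylpf, Tnnt3 and Actn3, had log2 fold changes of 0.31 to 0.82 that did not pass in limma, edgeR or DESeq2, and the summed level of the list was 175 to 211 normalized counts in the control libraries and 170 to 233 in the dexamethasone libraries. The part of muscle RNA in these isoforms was not tested. For Cox4i2 the control libraries held 8, 17 and 7 reads and the dexamethasone libraries 29, 19 and 15, at different depths. The log2 fold change of 1.15 (SE 0.387, limma adjusted p = 0.0105) was 0.90 without control replicate 3 (limma adjusted p = 0.0551) and 0.98 without dexamethasone replicate 1 (limma adjusted p = 0.0503).

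Complex V (ATP synthase) makes ATP in its F1 head, driven by the rotation of a membrane ring of c subunits. Of 17 tested genes 10 were lower and 3 higher, with a median log2 fold change of -0.14. Atp5s, 1 of the genes called lower, is named Dmac2l in RefSeq and was placed in none of the groups of subunits described below. Atp5b, the catalytic β subunit and the gene of highest level among all members, had 82105, 85209 and 82683 normalized counts in the control libraries and 77951, 73368 and 76367 in the dexamethasone libraries, a log2 fold change (limma) of -0.13 (adjusted p = 0.00497). Its partner Atp5a1, the α subunit, had 39229, 40987 and 39761 normalized counts in the control libraries and 44976, 42568 and 44871 in the dexamethasone libraries, a log2 fold change (limma) of 0.14 (adjusted p = 0.00176) that was 0.03 at the same total. The α and β genes thus lay on opposite sides of 0 on the deposited scale. Of the 5 genes of the F1 head 4 were lower and 1 higher, with the lowest fold change in Atp5e, the small ε subunit (-0.49).

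The c ring is built from a single mature protein made by 3 genes, which did not move together. Atp5g3 had 13003, 13845 and 13174 normalized counts in the control libraries and 16657, 15284 and 15960 in the dexamethasone libraries, and rose by 0.26 on the log2 scale (SE 0.038, limma adjusted p = 1.44e-06), which was 0.14 at the same total and 0.03 after quantile normalization. Atp5g2 fell by 0.24 on the log2 scale (limma adjusted p = 3.71e-05), and Atp5g1 had a log2 fold change of -0.08 and did not pass. Per kilobase of transcript the control levels were 18452 for Atp5g3, 7391 for Atp5g2 and 1217 for Atp5g1, and the summed level of the 3 genes changed by 6.22%, a direction that turned to -1.85% at the same total, where the groups overlapped. Of the 8 stalk and other membrane genes 4 were lower and 1, the stalk gene Atp5j, was higher (log2 fold change 0.23). The lowest was Atp5mpl, a small membrane subunit, with 2695, 3046 and 2757 normalized counts in the control libraries and 1839, 1899 and 2102 in the dexamethasone libraries (log2 fold change -0.54, SE 0.0523, limma adjusted p = 1.32e-09).

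**Figure D3:**
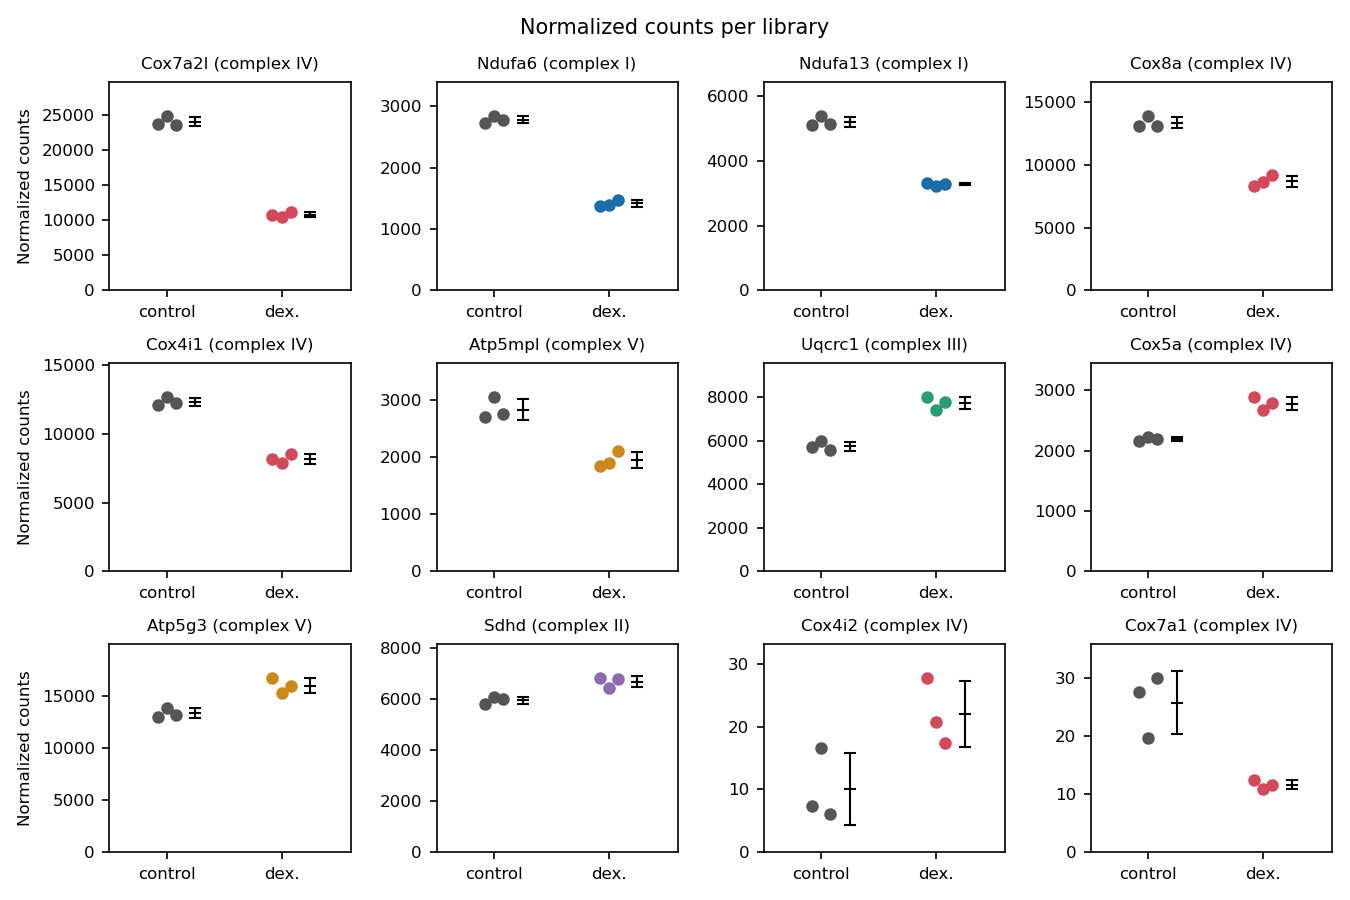
Normalized counts (y axis, from 0) of 12 nuclear subunit genes in each library. Points are libraries (grey, control; coloured, dexamethasone) and bars are mean ± SD (n = 3). Cox7a2l and Ndufa6 show the widest gaps among the abundant genes that were lower, while the points of Cox4i2 lie close together at 16.6 in control replicate 2 and 17.4 in dexamethasone replicate 3.

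A further 3 genes of this machinery fall outside the naming rule. Ndufab1, the acyl carrier protein of complex I, had a log2 fold change of -0.05 and did not pass, and Usmg5, a small subunit of complex V, and Atpif1, an inhibitor of complex V, were lower (log2 fold changes of -0.28 and -0.21).

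Short genes made up many of the genes that were lower. Among the 19 members with a transcript of up to 600 bases, 15 were lower and 0 higher in limma (0 also at an unadjusted p-value under 0.05, in edgeR and in DESeq2), with a median log2 fold change of -0.36. The transcript was the principal one, or for Cox6c2, without a coding sequence, the longest. The 19 were not held to a higher mean, and Cox6c2 and Cox7a1 had means of 10.6 and 18.7 normalized counts. Coding genes of the same transcript length whose mean reached 500 normalized counts, members included, numbered 75, of which 68.0% were lower, with a median of -0.30. The 18 members between 1200 and 2000 bases had a median of -0.18, against 0.06 for the 1504 such coding genes. Across 81 members with a coding sequence, all measured in the same 6 libraries, the log2 fold change and the coding length had a Pearson's r of 0.35 and a Spearman's rho of 0.39, against 0.05 and 0.07 across all 13021 tested coding genes. When the trends of fold change with length and GC content over all genes were removed, an alternative added after the data were seen, 53 members were lower and 10 higher with a median of -0.19, and the median of all tested genes was -0.05.

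**Figure D4:**
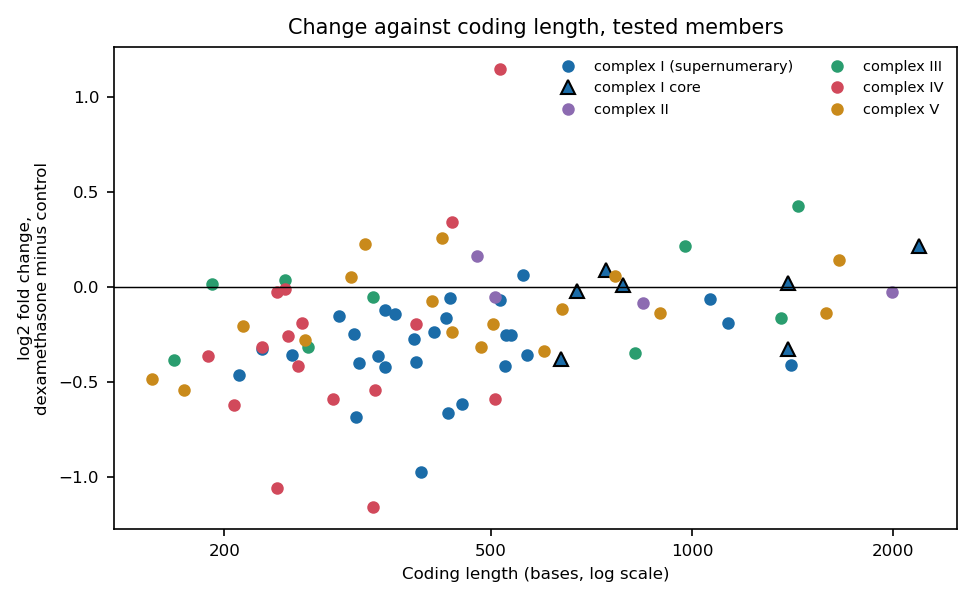
Log2 fold change (dexamethasone minus control, y axis) against coding length in bases (x axis, log scale) for the 81 tested members with a coding sequence, coloured by complex, with the core subunits of complex I as triangles. Points under 0 are most frequent at the short end, and the longest genes, Ndufs1 and Sdha, lie at 0.22 and -0.03.

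Promoters were looked at because the members share known regulators, among them NRF1, the estrogen-related receptors (ERR), YY1 and ETS factors such as GABPA. In the RefSeq table of the GRCm38.p6 build, 69 of the 95 members had a promoter window (250 bases before to 50 bases after the start, 300 bases in all), and 66 tested members gave 71 windows. Both strands were searched, and no more was asked than whether the letters occur. The letters known to be bound by NRF1 (GCGCA, any base, then GCGC) were in 25.4% of the windows of tested members, in 9.05% of those of all tested genes and in 4.6% of all windows. They were in 12 of 48 windows of members that were lower, 3 of 6 windows of members that were higher and 3 of 17 windows of those not called. The YY1 letters AAGATGGCG were in 9.86% of the members' windows and 2.72% of those of tested genes, and the ETS letters CCGGAAGT in 7.04% and 7.59%. The ERR letters TCAAGGTCA were in 2 of 71 windows, those of Atp5g3 and Sdhd, and in 0.284% of the windows of tested genes. The letters AGAACA, known from sites of the glucocorticoid receptor, were in 12.7% of the members' windows and 13.0% of those of tested genes, and the paired site that contains them (AGAACA, any 3 bases, then TGTTCT) was in 0 of the 71 and in 1 of 14096. The stretches below show the letters in 2 members that were lower (Cox6a1 and Ndufb4) and 2 that were higher on the deposited scale (Sdhd and Atp5g3). Capitals mark the NRF1 letters, and in Atp5g3 the ERR letters read on the other strand. The window of Atp5g3 also holds NRF1 letters, and that of Sdhd ERR letters, which do not lie wholly before the start and are not shown. All 4 are written 5′ to 3′ on the minus strand of GRCm38.p6, the strand of the gene, and lie before the start of the transcript, with Cox6a1 at chr5:115349051-115349135, Ndufb4 at chr16:37654369-37654574, Sdhd at chr9:50603904-50603943 and Atp5g3 at chr2:73911355-73911393.
Cox6a1: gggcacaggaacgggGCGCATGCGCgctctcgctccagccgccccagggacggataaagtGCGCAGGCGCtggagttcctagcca
Ndufb4: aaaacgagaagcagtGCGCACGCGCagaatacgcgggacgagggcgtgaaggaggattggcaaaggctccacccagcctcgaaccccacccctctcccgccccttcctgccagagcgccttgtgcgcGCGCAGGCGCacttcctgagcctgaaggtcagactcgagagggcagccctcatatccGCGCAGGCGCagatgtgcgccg
Sdhd: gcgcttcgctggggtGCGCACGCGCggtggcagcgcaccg
Atp5g3: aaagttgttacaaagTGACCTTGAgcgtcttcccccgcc
The same NRF1 letters thus stand before genes that differed in direction, Cox6a1 with a log2 fold change of -0.54 and Ndufb4 with -0.40 on one side, and Sdhd with 0.17 on the other, although Sdhd turned to -0.04 after quantile normalization. Only 64.8% of the 75-base stretches of the Ndufb4 transcript occur in no other transcript, so its count is uncertain.

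Genes that act with the nuclear subunits were examined by role, and the counts of each list stand beside the 35.2% lower and 37.2% higher among all tested genes. Of the 13 mitochondrially encoded subunits 5 were lower and 2 higher, with a median log2 fold change of -0.08 (0.02 once the length and GC trends were removed). mt-Co1, the catalytic subunit of complex IV and the most abundant of them, had means of 1350496 and 1295308 normalized counts, a log2 fold change of -0.06 that did not pass. At the same total it was -0.175 and was called lower (limma adjusted p = 0.00404). mt-Co2 and mt-Co3, also of complex IV, were lower on the deposited scale, with log2 fold changes of -0.18 and -0.20. The nuclear genes of that complex had a median of -0.31 (-0.43 at the same total), and the difference in size was not tested. mt-Cytb, of complex III, and mt-Nd5, of complex I, had log2 fold changes of -0.31 and -0.25 (limma adjusted p = 0.000161 and 0.00114), which became 0.06 and -0.02 after quantile normalization and then did not pass (limma adjusted p = 0.177 and 0.61). mt-Nd1 and mt-Nd2, chosen after their values were seen, were higher, with log2 fold changes of 0.40 and 0.21, although mt-Nd2 turned to -0.07 after quantile normalization. For mt-Co2, mt-Co3, mt-Atp6, mt-Nd3 and mt-Nd4l between 0.1% and 2.2% of the 75-base stretches occur in no other transcript, so their counts are uncertain, as is to a lesser degree that of mt-Co1, at 60.2%.

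Assembly factors build the complexes without staying in them. For complex I, 7 of 16 were lower and 7 higher (43.8% each), close to the shares over all tested genes, with a median log2 fold change of 0.05 that turned to -0.06 at the same total and -0.08 after quantile normalization. Ndufaf3 had 587, 699 and 630 normalized counts in the control libraries and 293, 262 and 338 in the dexamethasone libraries, a log2 fold change (limma) of -1.10 (adjusted p = 6.46e-11), whereas Ndufaf4, with which it acts at an early step, and Timmdc1 were higher (0.52 and 0.44). For complex IV, 11 of 20 were lower (55.0%) and 6 higher (30.0%), with a median of -0.24. Surf1, an assembly factor whose loss in humans causes Leigh syndrome, had 1799, 1835 and 1701 normalized counts in the control libraries and 907, 795 and 873 in the dexamethasone libraries, a log2 fold change (limma) of -1.05 (adjusted p = 1.17e-14). Cox14 had one of -0.88, while Coa5 was higher (0.12, but -0.06 after quantile normalization). Of the factors of complex II 2 of 4 were lower and the others, Sdhaf1 and Sdhaf2, did not pass, and of those of complex III 3 of 6 were lower and 1, Ttc19, was higher (0.37). Of the 3 complex V factors, Atpaf2 was higher (0.77), Tmem70 was lower (-0.11) and Atpaf1 did not pass.

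Electrons reach the complexes through mobile carriers and from the enzymes that supply substrate. Of 12 genes of cytochrome c and coenzyme Q synthesis 6 were higher and 5 lower (41.7%, against 35.2% of all tested genes), with a median log2 fold change of 0.15. Cycs, somatic cytochrome c, had 5905, 5701 and 5591 normalized counts in the control libraries and 9079, 9162 and 9695 in the dexamethasone libraries, a log2 fold change of 0.70 (SE 0.0372, limma adjusted p = 1.22e-14). Pdss1, which makes the side chain of coenzyme Q, was higher (1.26) and the kinase-like Coq8a lower (-1.16), both past the cut-off of 1. Of 16 enzymes of pyruvate entry and the TCA cycle 8 were higher and 4 lower, with a median of 0.06 that turned to -0.05 at the same total and -0.14 after quantile normalization. Citrate synthase (Cs) was higher (0.25) and Pdha1, of pyruvate dehydrogenase, lower (-0.26). Of 6 carriers of ADP, phosphate and anions 4 were higher and 2 lower. Slc25a5, the ADP/ATP carrier of dividing cells, went from 17644, 18598 and 17680 normalized counts in the control libraries to 33252, 32506 and 33902 in the dexamethasone libraries (log2 fold change 0.89, limma adjusted p = 4.7e-17), while Slc25a3, the phosphate carrier, was lower (-0.17). Slc25a4, another ADP/ATP carrier gene, was also lower, from a mean of 27403 to 19820 (log2 fold change -0.47, limma adjusted p = 1.75e-11). It was chosen after its values were seen and is not counted among the named genes below. The uncoupling protein genes in the table, Ucp2 and Ucp3, did not reach the mean for testing.

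Regulators of mitochondrial biogenesis were mostly higher. Of 13 tested, 10 were higher (76.9%, against 37.2% of all tested genes) and 2 lower, with a median log2 fold change of 0.44 (0.32 at the same total and 0.26 after quantile normalization). Yy1 and Gabpa both had a log2 fold change of 0.52, and Pprc1, a coactivator, had 0.46 (limma adjusted p = 8.58e-11). Nrf1, Tfam, which packages mitochondrial DNA, and Polg, its polymerase, were higher with log2 fold changes of 0.44, 0.81 and 0.90, and Esrra was lower with -0.26. These 4 genes were chosen after their values were seen. Ppargc1a, a coactivator known for raising oxidative phosphorylation genes, had at most 5.27 normalized counts in any library and was not tested. Of 78 tested mitochondrial ribosomal protein genes 37 were higher (47.4%) and 18 lower (23.1%), with a median of 0.10 that turned to -0.02 at the same total and -0.04 after quantile normalization. Of 10 hypoxia-responsive mitochondrial and metabolic genes 6 were higher and 2 lower, among them Slc2a1, a glucose transporter, at 1.30 and Vegfa at 0.78, and Lonp1, a protease that degrades a subunit IV isoform under hypoxia, did not pass.

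**Figure D5:**
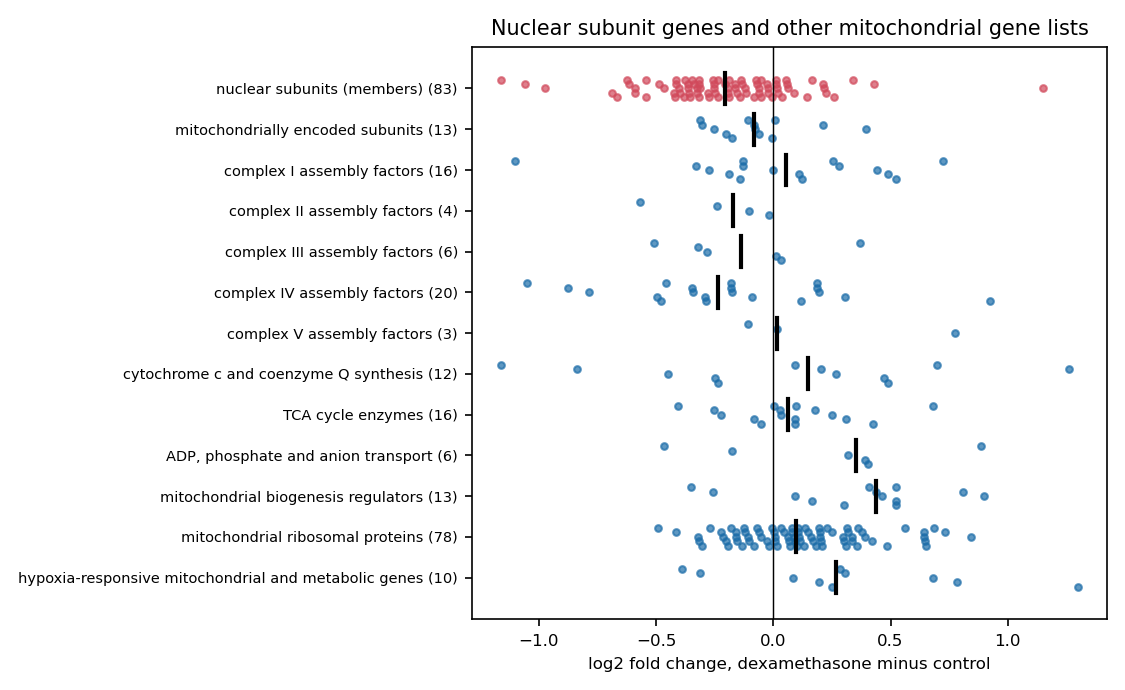
Log2 fold change (dexamethasone minus control, x axis) of the 83 nuclear subunit genes (red) and of the tested genes of 12 further mitochondrial gene lists (blue), 1 point per gene with the median as a black bar and the number of tested genes in brackets. The median of the nuclear subunits is at -0.20 and that of the biogenesis regulators at 0.44, and the medians of complex I and V assembly factors, TCA cycle enzymes and mitochondrial ribosomal proteins, above 0 here, are below 0 at the same total and after quantile normalization.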

How the data were processed

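Libraries were made with a stranded poly(A) kit. Per the submitters' processing notes and the methods, reads were aligned to GRCm39 and counted per gene with STAR 2.7.10a, and the authors divided counts by DESeq2 1.36.0 size factors. The deposited values are this normalized signal (normalized counts). The annotation release is not given in the sources used here. Every value was a whole multiple of 1 read (100.0%, within 0.001 reads), so read counts were recovered. Symbols, lengths and overlaps came from GENCODE M21 (28087 of 29616 genes matched) and promoters from RefSeq GRCm38.p6; no GRCm39 coordinates were used.

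Values were log2-transformed after adding 1, which understates changes of low genes, and compared with limma 3.58.1 (R 4.3.3, with a trend) over the 17442 genes with a mean of at least 10. edgeR 4.0.16 and DESeq2 1.42.0 on recovered reads were alternatives, and both tools and limma with a trend were checked on simulated data. The other alternatives were not checked in this way. Where a gene has 0 reads, up to 3 reads per library cannot be told from 0, which covers counting error only. The main fit did not pair the libraries by replicate number. Deviations of same-numbered libraries had correlations of -0.105 to -0.0199, which with 3 libraries per group cannot exclude a pairing.

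The members and lists were chosen with earlier results of these data known. Named members are those past the cut-off (adjusted p-value under 0.05 and log2 fold change of at least 1), those with the 2 highest means and the 2 highest and 2 lowest fold changes of each complex, the isoform genes and the Sdh genes, and, of each list, the 3 of highest mean and those past the cut-off; others were chosen after their values were seen. Values of 1 member named by the rule are not reported here.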

Additional observations from a re-analysis of the deposited data

How the results depend on the processing

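The data were refitted under 17 alternatives. The median of the members stayed below 0, and at least 49 members were lower, in each of them. Of 1861 values of named genes, 1721 kept their direction and their side of the threshold, 34 lost it, 53 gained it and 53 changed direction. Genes with few reads, such as Cox4i2, are limited by depth. The counts of members lower and higher were 54 and 9 in DESeq2 and 58 and 9 in edgeR. A fit with the replicate number as a block gave 51 lower and 9 higher. The check on deviations showed no pairing by number but cannot exclude one, and the calls lost by the block among named genes were those of Atp5b, mt-Nd5, Mrpl51 and Mrps17. Unless stated, the cause of a change was not tested.

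With a mean of at least 100, which tests fewer genes, 2170 genes met both requirements in place of 3894, 1 member did (also with a pseudocount of 8), and complex IV had 1 gene higher. Median log2 fold changes were then 0.051 for all tested genes, -0.362 for complex IV, -0.239 for complex II assembly factors and -0.182 for complex IV assembly factors. With no filter, which adds genes with few reads, they were -0.224 for complex IV and 0.356 for biogenesis regulators.

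In edgeR the medians were -0.249 for all members, -0.0251 for all tested genes, -0.34 for complex IV and 0.41 for biogenesis regulators, and 2 genes of complex II were lower (1 in DESeq2). Ndufv1 became -0.00498, Atpaf1 -0.0103, Uqcr10 -0.0115 and mt-Nd3 -0.00932.

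Rescaling to the same total raises the control values and lowers the dexamethasone values, by a factor of its own for each library. At the same total medians were -0.318 for all members, -0.113 for all tested genes, and -0.377, -0.154, -0.167, -0.428 and -0.252 for complexes I to V, with 3 genes lower and 0 higher in complex II. They were -0.194 for mitochondrially encoded subunits, -0.0611, -0.285, -0.251, -0.349 and -0.0969 for the assembly factors of complexes I to V, 0.035 for cytochrome c and coenzyme Q synthesis, -0.0511 for TCA cycle enzymes, 0.239 for carriers, 0.323 for biogenesis regulators, -0.0155 for ribosomal proteins and 0.154 for hypoxia-responsive genes. Genes that changed direction were Ndufv1 (-0.0929), Ndufv2 (-0.025), Uqcrq (-0.0776), Atpaf1 (-0.0969), Lonp1 (-0.0303), Mdh2 (-0.0796), Mrpl51 (-0.0114), Uqcc2 (-0.0793), Ndufb8 (-0.0501), Uqcr10 (-0.0974) and mt-Nd3 (-0.106).

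After quantile normalization 4 members were higher, with 0 in complex I, 0 in complex II, 1 in complex III and 1 in complex V, and 3 genes of complex II were lower. Medians were -0.38 for all members, -0.0746 for all tested genes, and -0.422, -0.244, -0.195, -0.518 and -0.353 for complexes I to V. They were -0.0761, -0.28, -0.302 and -0.127 for the assembly factors of complexes I, III, IV and V, 0.0443 for cytochrome c and coenzyme Q synthesis, -0.143 for TCA cycle enzymes, 0.182 for carriers, 0.263 for biogenesis regulators, -0.0404 for ribosomal proteins and 0.187 for hypoxia-responsive genes. Genes that changed direction were Ndufv1 (-0.184), Ndufv2 (-0.115), Sdhd (-0.0398), Uqcrq (-0.174), Atpaf1 (-0.127), Coa5 (-0.0582), Lonp1 (-0.139), Mdh2 (-0.187), Mrpl50 (-0.0473), Mrpl51 (-0.0731), Uqcc2 (-0.141), Ndufb8 (-0.0892), Uqcr10 (-0.0645), mt-Cytb (0.0624), mt-Nd2 (-0.0746) and mt-Nd4l (0.101).

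With the length and GC trends removed, an alternative chosen after seeing the data, medians were -0.054 for all tested genes, -0.0909 for complex II (2 genes lower), -0.285 for complex IV, 0.0184 for mitochondrially encoded subunits, -0.029, -0.223, -0.323 and -0.0922 for the assembly factors of complexes I, III, IV and V, 0.0819 for cytochrome c and coenzyme Q synthesis, -0.0432 for TCA cycle enzymes, 0.304 for carriers, 0.352 for biogenesis regulators and 0.176 for hypoxia-responsive genes. Ndufa4 became 0.029, Atpaf1 -0.0922, Coa5 -0.0441, Mrpl51 -0.0549, mt-Nd4l 0.0185 and mt-Atp6 0.0246.

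When libraries were left out singly, 1 to 4 members met both requirements, the 1 without control replicate 3. Genes higher numbered 1 to 2 in complex I and 1 to 2 in complex IV, with 1 in complex IV without control replicate 3 or dexamethasone replicate 1, and 0 to 1 genes of complex II were lower, with 1 without dexamethasone replicate 3. Medians were -0.296 to -0.234 for complex I, -0.107 (without control replicate 3) to -0.0102 for complex III and -0.356 to -0.293 for complex IV. Log2 fold changes of genes that changed direction were -0.0606 to 0.00939 for Cox7b, -0.0435 to 0.0238 for Ndufa4, -0.356 to 0.000628 for Ndufa4l2, -0.0183 to 0.085 for Uqcrq, -0.0164 to 0.0668 for Atpaf1, -0.0371 to 0.104 for Uqcc2, -0.0435 to 0.0827 for Uqcr10, -0.135 to 0.144 for mt-Nd3, -0.0911 to 0.0962 for mt-Nd4l and -0.204 to 0.0591 for Sdhaf1, none of which passed the test on the deposited scale.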
